A study of Mus musculus with 16 samples.

Results

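The 4 Janus kinases Jak1, Jak2, Jak3 and Tyk2 and the 5 transcription factors Stat3, Stat4, Stat5a, Stat5b and Stat6 were followed across 2 mouse lymphoid tumour lines. They were chosen by gene symbol, and each symbol matched 1 Ensembl gene, so all 9 genes were found among the 38293 genes counted. All 9 were among the 13750 genes with enough reads to test. P6D4 derives from the SCID.adh line, a thymic lymphoma, and is labelled DN3, an early thymocyte stage before a complete T cell receptor is made. 70Z/3 is a lymphoblast line labelled pre-B, the B cell stage that carries the surrogate light chain. RNA-Seq was done on 3 libraries of each line, and chromatin immunoprecipitation of the transcription factor Miz1 was done once per line. No treatment or engineered allele is named in the labels for either line. Each lineage is represented by 1 tumour line, so lineage and line cannot be told apart. The labels do not say that the 3 libraries came from separate cultures, so the spread behind each p-value may be technical and is that of these libraries alone.

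Janus kinases sit on the inner tails of cytokine receptors. When a cytokine joins the receptor chains, the kinases phosphorylate one another, the receptor and then a STAT factor, which pairs up and enters the nucleus to bind DNA. Jak3 works almost entirely through the common gamma chain, while Jak1, Jak2 and Tyk2 serve many receptors. In early mouse lymphocytes IL-7 signals through Jak1, Jak3 and the Stat5 pair, and both early B and early T cells depend on it. IL-12 acts mainly through Stat4, IL-4 and IL-13 through Stat6, and the IL-6 family mainly through Stat3.

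The libraries held 48.3 to 54.8 M gene counts in P6D4 and 45.5 to 48.9 M in 70Z/3. Levels are given in CPM, gene counts relative to the library total after TMM scaling. The correlation of log2 CPM across genes was 0.997 to 0.998 between libraries of a line and 0.645 to 0.658 between the lines. The lineage labels were set against 8 markers each. The summed pre-B markers reached 0.759 to 1.32 CPM in P6D4, against 1870 to 1920 CPM in 70Z/3, and all 8 were under 1 CPM in P6D4. The summed thymocyte markers reached 3640 to 3730 CPM in P6D4, against 168 to 174 CPM in 70Z/3, where 4 of 8 were under 1 CPM and Lck, at 95.2 CPM, was the highest. Myeloid markers summed to 27.5 to 34.1 CPM in P6D4, against 21.2 to 23.0 CPM in 70Z/3, natural killer and innate lymphoid markers to 31.7 to 34.8 CPM in P6D4, against 23.6 to 25.3 CPM in 70Z/3, with Eomes at 0 in both lines. These sums rest on single genes that differed in opposite directions. Itgam had 29.1 CPM in P6D4, against 7.07 CPM in 70Z/3, and Lyz2 had 1.96 CPM in P6D4, against 12.3 CPM in 70Z/3. Tbx21 had 32.9 CPM in P6D4, against 0.065 CPM in 70Z/3, and Klrd1 had no count in P6D4 but 21.0 CPM in 70Z/3. Erythroid markers stayed under 1 CPM in both, and stromal markers summed to 3.78 to 4.49 CPM in P6D4, against 0.497 to 0.936 CPM in 70Z/3, with Col3a1 and Vcam1 at 0 in both. The part of these other cell types in the results below was not tested.

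Stat4 and Jak1 differed most between the lines, so the RefSeq sequence before their starts is shown, with that of Stat6, the gene with a Miz1 peak at its start. Each sequence is the 250 bases upstream of an annotated start on the gene's own strand (GRCm38.p6), with CG dinucleotides in capitals. The Stat4 windows lie at chr1:51986898-51987147 and chr1:52007990-52008239 on the plus strand, the Jak1 window at chr4:101265224-101265473 on the minus strand and the Stat6 window at chr10:127642736-127642985 on the plus strand.
Stat4 upstream start: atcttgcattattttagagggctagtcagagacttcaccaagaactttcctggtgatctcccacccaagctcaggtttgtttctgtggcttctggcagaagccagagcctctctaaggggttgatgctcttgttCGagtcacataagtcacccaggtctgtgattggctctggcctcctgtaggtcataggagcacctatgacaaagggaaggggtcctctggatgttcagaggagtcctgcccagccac
Stat4 downstream start: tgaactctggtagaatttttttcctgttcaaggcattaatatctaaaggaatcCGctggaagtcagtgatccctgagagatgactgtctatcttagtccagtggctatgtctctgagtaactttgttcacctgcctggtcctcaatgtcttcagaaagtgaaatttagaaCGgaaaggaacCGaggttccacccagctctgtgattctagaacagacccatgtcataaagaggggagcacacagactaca
Jak1: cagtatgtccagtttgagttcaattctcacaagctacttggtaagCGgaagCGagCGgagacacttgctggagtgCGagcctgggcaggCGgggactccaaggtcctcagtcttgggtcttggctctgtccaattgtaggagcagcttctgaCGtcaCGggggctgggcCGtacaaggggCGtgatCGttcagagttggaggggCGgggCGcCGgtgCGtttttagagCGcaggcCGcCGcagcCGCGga
Stat6: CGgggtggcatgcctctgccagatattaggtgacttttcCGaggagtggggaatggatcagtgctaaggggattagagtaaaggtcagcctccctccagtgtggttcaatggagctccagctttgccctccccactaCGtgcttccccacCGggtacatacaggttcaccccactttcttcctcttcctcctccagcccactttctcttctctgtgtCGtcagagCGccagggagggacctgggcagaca

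The 2 Stat4 windows held 1 and 3 CG dinucleotides and the Jak1 window 19. The median over the 250 bases before all 32851 RefSeq starts was 6.0, and Stat6 also held 6. The other members ranged from 5 at 1 start each of Stat5a and Stat5b to 37 at Jak2 and 40 at the other Stat5b start, with 21 at the other Stat5a start. Tyk2 had 19, Stat3 13 and Jak3 8. The Stat4 windows were thus the poorest in CG among the members, at a G and C content of 51.6% and 44.0%.

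Stat5a and Stat5b are neighbours and near-copies of one gene, and the sequence at 1 start of each shows the likeness. Over 65 bases, at chr11:100860418-100860482 on the plus strand for Stat5a and chr11:100822563-100822627 on the minus strand for Stat5b, 58 bases or 89.2% were identical. The stretch runs from base -66 to base -2 from a Stat5a start and from base -57 to base 7 from a Stat5b start. Capitals mark the identical bases.
Stat5a: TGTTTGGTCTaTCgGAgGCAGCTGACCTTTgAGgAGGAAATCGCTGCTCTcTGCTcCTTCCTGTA
Stat5b: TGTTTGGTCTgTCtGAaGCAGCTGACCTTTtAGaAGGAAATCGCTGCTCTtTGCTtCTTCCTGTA

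All 9 genes differed between P6D4 and 70Z/3, 5 higher and 4 lower in P6D4, but the share of all tested genes that differed was 86.5%, with 43.3% higher and 43.2% lower (edgeR quasi-likelihood test, adjusted p under 0.05 over all tested genes). The 3 libraries of one line lay above the 3 of the other for all 9 members and for 87.4% of tested genes, so neither count sets the family apart. Sizes varied far more. Tested against a 2-fold difference, 2 of 9 members passed, Stat4 and Jak1, both lower in P6D4, beside 35.2% of all tested genes. The median log2 fold change, P6D4 over 70Z/3, was 0.11 for the members and 0.01 for all tested genes, and the median size was 0.62 and 0.67. The SE beside a log2 fold change was obtained from the test's F (size over root F) and is not a fitted one. It can be too small for genes with few counts in a line. For Stat4 it was 0.09, against a fitted SE of 0.14 with DESeq2 and 0.19 with limma-voom.

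**Figure D1:**
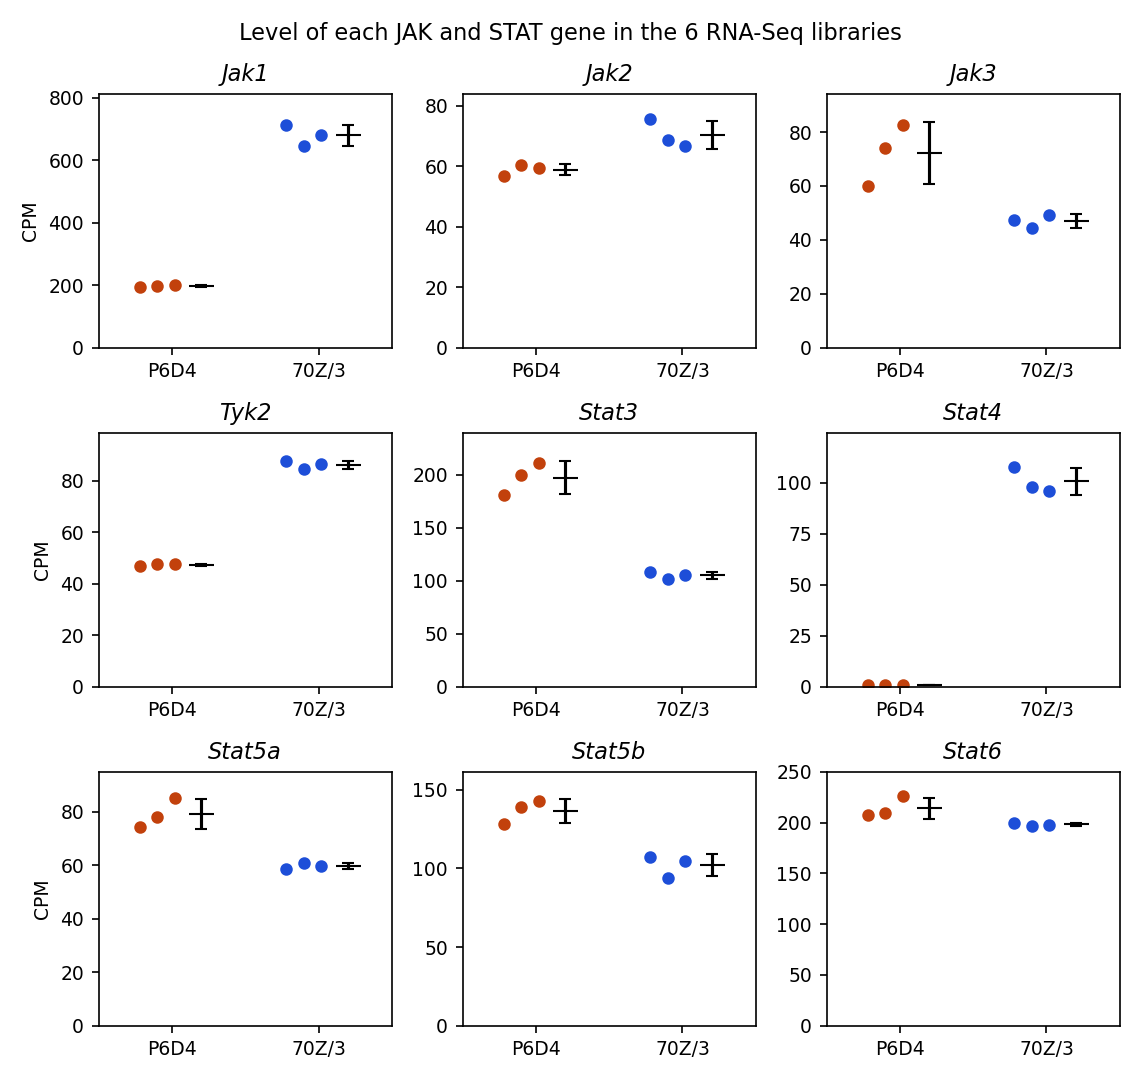
Level of each of the 9 genes in CPM (linear axes from 0, a different scale per panel) in the 3 P6D4 libraries (left, orange) and the 3 70Z/3 libraries (right, blue); black marks give the mean ± SD. The lines do not overlap in any panel, Stat4 lies near 0 in P6D4, and the 3 Jak3 points of P6D4 are spread from 60.0 to 82.8 CPM.

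Among the kinases, Jak1, which pairs with Jak3 on gamma chain receptors and with Jak2 or Tyk2 on others, had 195, 198 and 200 CPM in P6D4, against 714, 646 and 680 CPM in 70Z/3. The P6D4 libraries lay close together and far under every 70Z/3 library. Jak1 averaged 198 ± 2.67 CPM in P6D4, against 680 ± 33.8 CPM in 70Z/3 (SD, n = 3 each), a log2 fold change of -1.78 ± 0.04 (adjusted p = 3.06e-14, and 2.27e-11 against a 2-fold difference).

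Tyk2, the kinase of the type I interferon and IL-12 receptors, had 46.8, 47.7 and 47.5 CPM in P6D4, against 87.6, 84.4 and 86.3 CPM in 70Z/3. Both sets were tight and did not overlap. Tyk2 fell by 0.86 on the log2 scale (SE 0.04, adjusted p = 3.37e-11), less than 2-fold. Jak2, the kinase of the erythropoietin and interferon gamma receptors, differed less, with 56.8, 60.4 and 59.5 CPM in P6D4, against 75.5, 68.8 and 66.8 CPM in 70Z/3. The highest P6D4 value was under the lowest 70Z/3 value by about the spread within a line. Its log2 fold change was -0.26 ± 0.05 (adjusted p = 0.000209).

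Jak3 was the 1 kinase that was higher in P6D4, with 60.0, 74.0 and 82.8 CPM, against 47.2, 44.3 and 49.4 CPM in 70Z/3. All P6D4 libraries lay above all 70Z/3 libraries, but they were unequal among themselves. The log2 fold change was 0.62 ± 0.09 (adjusted p = 1.83e-05), and it ranged from 0.52 to 0.74 when any 1 library was left out. The coefficient of variation of Jak3 over the P6D4 libraries was 15.9%, against 5.46% over the 70Z/3 libraries. Of 7448 genes with at least 20 CPM in P6D4, 38 or 0.51% varied more than Jak3, and the median over all 7448 was 3.0%. Counting error alone would give Jak3 1.63% there.

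Among the factors, Stat4, which carries the IL-12 signal in T and natural killer cells, showed the widest difference. Its libraries held 53, 42 and 35 counts in P6D4, against 5063, 4736 and 4318 counts in 70Z/3. That is 0.955, 0.797 and 0.718 CPM in P6D4, against 108, 98.1 and 95.9 CPM in 70Z/3. Every P6D4 library thus held a trace and every 70Z/3 library a clear level. Means were 0.824 ± 0.121 CPM in P6D4, against 101 ± 6.29 CPM in 70Z/3 (SD, n = 3 each), 122-fold lower in P6D4 (log2 fold change -6.92 ± 0.09, adjusted p = 7.65e-17, and 1.9e-16 against a 2-fold difference). In bulk RNA, fewer cells with a transcript and less of it per cell cannot be told apart.

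Stat3, the factor of IL-6 and IL-10 signalling, was the member most raised in P6D4, with 181, 200 and 211 CPM, against 108, 102 and 105 CPM in 70Z/3. The groups were well apart. Stat3 averaged 197 ± 15.5 CPM in P6D4, against 105 ± 2.96 CPM in 70Z/3 (SD, n = 3 each), and its log2 fold change of 0.91 ± 0.05 (adjusted p = 8.14e-10) did not pass the 2-fold test.

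Stat5a, a main factor of IL-2, IL-7 and prolactin signalling, had 74.1, 77.9 and 85.0 CPM in P6D4, against 58.6, 60.8 and 59.7 CPM in 70Z/3. Its near-copy Stat5b had 128, 139 and 143 CPM in P6D4, against 107, 94.1 and 105 CPM in 70Z/3. Both were higher in every P6D4 library. The log2 fold changes were 0.40 ± 0.05 for Stat5a (adjusted p = 3e-06) and 0.42 ± 0.05 for Stat5b (adjusted p = 4.99e-06). The genes share sequence, so how the authors' counting split or left out their shared reads is uncertain. Stat5a took 36.7%, 35.9% and 37.2% of the counts of the pair in P6D4, against 35.4%, 39.2% and 36.2% in 70Z/3. The lines overlapped in this share. The mean difference was -0.351 percentage points (exact two-sided permutation p = 0.9, smallest possible 0.1). Per library the exact 95% intervals of the share reached from 35.0 to 38.1% in P6D4 and from 34.4 to 40.4% in 70Z/3, which covers counting error alone, since reads were not tagged as molecules.

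Stat6, the factor of IL-4 and IL-13 signalling, differed least, with 207, 209 and 226 CPM in P6D4, against 200, 197 and 198 CPM in 70Z/3. The lowest P6D4 library was close to the highest 70Z/3 library. Its log2 fold change was 0.11 ± 0.04 (adjusted p = 0.017), and the call was lost with RLE size factors (adjusted p = 0.0546), with DESeq2 (0.0669), and without P6D4 replicate 3 (0.0738) or 70Z/3 replicate 2 (0.0623) or 3 (0.0587). Stat6 overlaps the end of Nab2 by 70 bases. Nab2, a corepressor, had 0.915 ± 0.106 CPM in P6D4, against 31.2 ± 2.03 CPM in 70Z/3, and whether counting used strand is not known, so reads of this overlap are uncertain.

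The kinase sum was lower and the factor sum a little higher in every P6D4 library than in any 70Z/3 library. The 4 kinases summed to 358, 381 and 390 CPM in P6D4, against 924, 844 and 883 CPM in 70Z/3, with means of 376 ± 16.1 CPM in P6D4, against 883 ± 40.2 CPM in 70Z/3 (SD, n = 3 each) and a ratio of 0.426. The 5 factors summed to 590, 627 and 666 CPM in P6D4, against 581, 553 and 564 CPM in 70Z/3, with means of 628 ± 38.1 CPM in P6D4, against 566 ± 14.2 CPM in 70Z/3 and a ratio of 1.11. Shares of summed counts do not depend on library scaling. They weigh a gene by its transcript length, so they are compared between lines and not between genes.

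**Figure D2:**
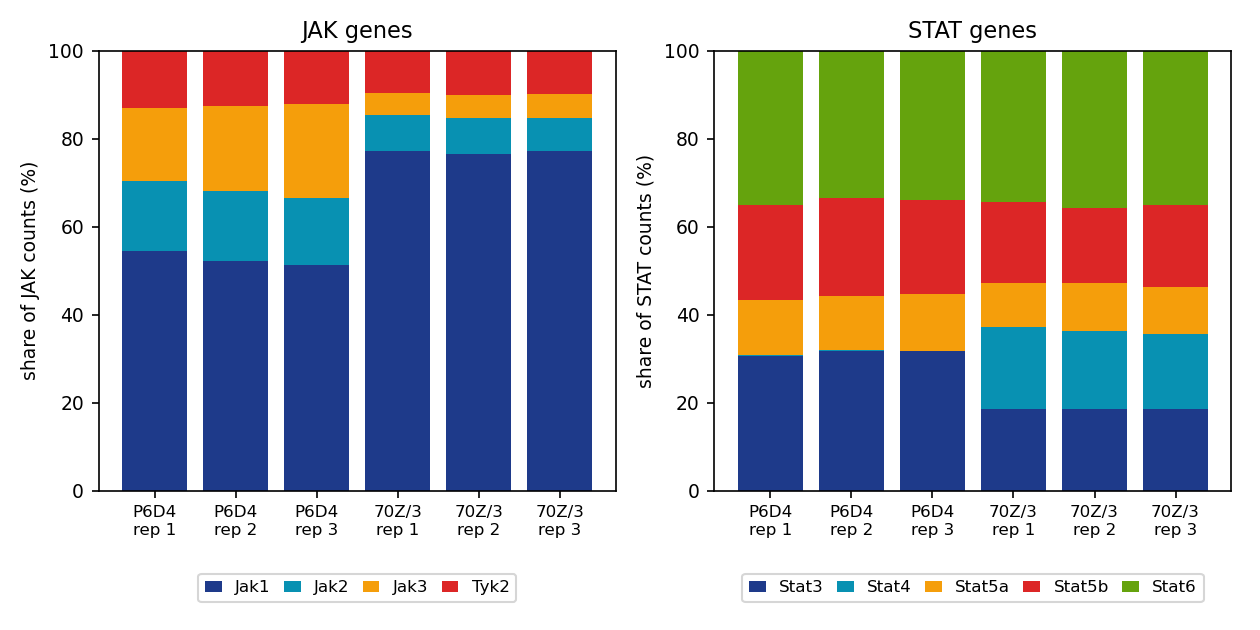
Share of each gene in the summed counts of its family (percent, bars add to 100) for the 3 P6D4 libraries (left) and the 3 70Z/3 libraries (right) in each panel. Jak1 makes up less of the kinase counts in P6D4 and Jak3 more, and Stat4 is close to 0 in P6D4.

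Jak1 made up 52.6 ± 1.57% of the kinase counts in P6D4 and 77.0 ± 0.335% in 70Z/3 (SD, n = 3 each). Jak3 made up 19.1 ± 2.26% in P6D4 and 5.32 ± 0.255% in 70Z/3, and Jak2 made up 15.7 ± 0.339% in P6D4 and 7.96 ± 0.342% in 70Z/3. Tyk2 made up 12.6 ± 0.433% in P6D4 and 9.75 ± 0.259% in 70Z/3. With Jak1 left out of the sum, Jak2 took like shares, 33.1 ± 1.69% in P6D4 and 34.6 ± 1.47% in 70Z/3, whose values overlapped. Jak3 then took 40.3 ± 3.47% in P6D4 and 23.1 ± 1.14% in 70Z/3, and Tyk2 took 26.6 ± 1.81% in P6D4 and 42.3 ± 0.573% in 70Z/3. Without Jak1, the Jak3 share was thus higher and the Tyk2 share lower in every P6D4 library.

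Stat3 made up 31.4 ± 0.67% of the factor counts in P6D4 and 18.6 ± 0.0668% in 70Z/3, and Stat4 made up 0.132 ± 0.0274% in P6D4 and 17.8 ± 0.771% in 70Z/3. Stat6 made up 34.1 ± 0.856% in P6D4 and 35.1 ± 0.683% in 70Z/3, with overlapping libraries (exact permutation p = 0.2). With Stat4 left out of the sum, Stat5a (12.6% in P6D4 and 12.8% in 70Z/3) and Stat5b (21.8% in P6D4 and 21.9% in 70Z/3) overlapped between the lines, Stat3 differed by 8.86 and Stat6 by -8.53 percentage points, P6D4 minus 70Z/3. Over the 18 shares compared, no exact permutation test could reach the threshold: the smallest p with 3 libraries against 3 is 0.1, which is 0.15 after adjustment over the 18.

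The 9 genes lie on 7 chromosomes, and their surroundings differed between the lines as well. Tested genes within 1 Mb of Tyk2 had a median log2 fold change of -0.77 (53 genes), close to the -0.86 of Tyk2, while the median of chromosome 9 was -0.09. Its nearest neighbours fell with it, Raver1 by 0.92 and Cdc37, a kinase co-chaperone, by 1.02 on the log2 scale (SE 0.04 each, adjusted p = 2.22e-11 and 9.91e-12). Tyk2 thus differed by about as much as the genes around it.

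Stat6 showed the reverse. Tested genes within 1 Mb had a median of 0.82 (62 genes), and 51 of them had a higher log2 fold change than the 0.11 of Stat6. The median of chromosome 10 was 0.47. Its neighbour Lrp1 did not pass the test, with 16.0 ± 1.05 CPM in P6D4, against 16.3 ± 1.13 CPM in 70Z/3.

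Around Jak1, 3 genes were tested, and all 3 were lower in P6D4 by more than Jak1. Leprot, a small membrane protein of endosomes, had 7.06 ± 0.178 CPM in P6D4, against 45.6 ± 1.89 CPM in 70Z/3 (log2 fold change -2.69 ± 0.06, adjusted p = 1.51e-14). The auxilin gene Dnajc6 and the phosphodiesterase gene Pde4b had no count in P6D4, which puts them at least 6.57-fold and at least 1180-fold lower when 3 counts a library (0.0575 CPM) are taken as the floor. These 3 genes were named after their values were seen. The nearest genes on either side, Raver2, which overlaps Jak1 by 397 bases, and Ak4, had too few counts to test.

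The 10 tested genes around Stat4 had a median of -0.55, far from the -6.92 of Stat4. Of these genes, 2 fell further than Stat4, and both were named after their values were seen. Nab1, a corepressor, had 0.0701 ± 0.0281 CPM in P6D4, against 176 ± 1.84 CPM in 70Z/3 (log2 fold change -11.24 ± 0.09, adjusted p = 2.19e-18). The other, 1700019D03Rik, had 0.0823 ± 0.0605 CPM in P6D4, against 27.2 ± 3.22 CPM in 70Z/3 (-8.32 ± 0.2, adjusted p = 6.56e-14). In all of P6D4 Nab1 had 11 counts and 1700019D03Rik 13, so the sizes of these fold changes are uncertain.

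Stat3, Stat5a and Stat5b lie side by side on chromosome 11, with 346 bases between the Stat5 genes and 1636 between Stat5a and Stat3. The median of 53 tested genes around them was 0.29. All 3 were higher in P6D4, and Cavin1, a caveolar coat protein beyond Stat3, was higher too, at 3.79 ± 0.321 CPM in P6D4, against 1.14 ± 0.238 CPM in 70Z/3 (1.73 ± 0.15, adjusted p = 9.61e-08). Ghdc beyond Stat5b was lower (-0.53 ± 0.08, adjusted p = 4.03e-05).

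Jak3 had a neighbour in each direction of change. Unc13a, a synaptic vesicle priming gene, had 4.04 ± 1.02 CPM in P6D4, against 1.26 ± 0.259 CPM in 70Z/3 (1.67 ± 0.21, adjusted p = 3.93e-06). B3gnt3, a glycosyltransferase gene 795 bases from Jak3, had 0.304 ± 0.152 CPM in P6D4, against 2.73 ± 0.417 CPM in 70Z/3 (-3.15 ± 0.24, adjusted p = 2.73e-08). Near Jak2, Rcl1 did not pass the test (58.9 ± 2.16 CPM in P6D4, against 60.9 ± 3.91 CPM in 70Z/3) and Insl6 was lower (-0.34 ± 0.09, adjusted p = 0.00382).

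**Figure D3:**
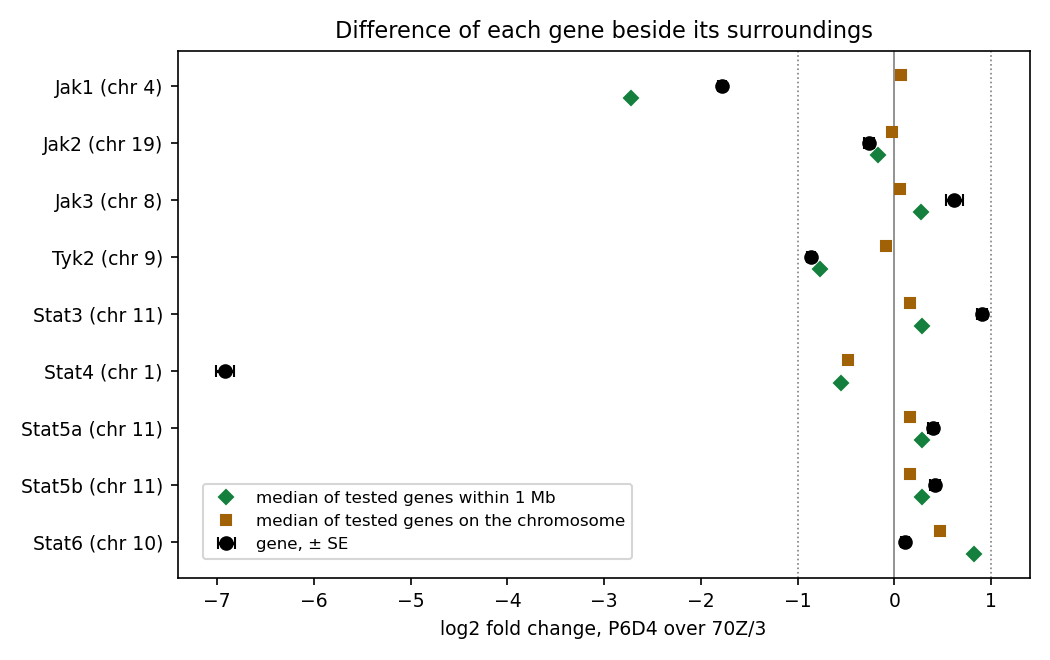
log2 fold change, P6D4 over 70Z/3, of each member (black, ± SE), beside the median of tested genes within 1 Mb (green diamonds) and on the whole chromosome (brown squares). Dotted lines mark a 2-fold difference; genes with no count in a line enter the medians at their bound. Tyk2 lies close to its local median, Stat6 below it and Stat4 far below it.

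The genes with the levels most like those of the 2 extremes were found by Euclidean distance over the 6 log2 CPM values. Closest to Stat3 were Foxo3, a forkhead factor, with 187 CPM in P6D4, against 101 CPM in 70Z/3, Ccdc6 with 208 CPM in P6D4, against 107 CPM in 70Z/3, and Afg3l2, a mitochondrial protease subunit, with 212 CPM in P6D4, against 105 CPM in 70Z/3. Each was at a distance of 0.19. Closest to Stat4 were Map3k20, a stress kinase, with 0.621 CPM in P6D4, against 95.4 CPM in 70Z/3 (0.75), Iqgap2, a scaffold protein, with 0.656 CPM in P6D4, against 111 CPM in 70Z/3 (0.85), and Emb, a membrane glycoprotein, with 0.693 CPM in P6D4, against 85.2 CPM in 70Z/3 (0.89). With 6 libraries of 2 lines these distances describe the step between the lines and the spread around it.

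The receptor chains that the kinases bind differed in both directions, most of them past 2-fold. Of 35 listed chains 26 could be tested, 13 were higher and 12 lower in P6D4, and Prlr was not called (0.639 ± 0.0415 CPM in P6D4, against 0.687 ± 0.165 CPM in 70Z/3). That is 96.2% called, beside 86.5% of all tested genes. Past a 2-fold difference, 8 were higher and 9 lower, 65.4% of those tested, beside 35.2% of all tested genes and 22.2% of the members; the difference between the lists was not tested. The median log2 fold change was 0.07. The other 9 chains had too few counts, among them Csf2rb, Csf3r and Ghr.

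Among the chains of the gamma chain family, Il9r had 99.7 ± 7.58 CPM in P6D4, against 0.128 ± 0.0527 CPM in 70Z/3 (SD, n = 3 each), a log2 fold change of 9.57 ± 0.13 (adjusted p = 1.47e-16). In all of 70Z/3 Il9r had 18 counts, so the size of its fold change is uncertain. Il2rb, the signalling chain for IL-2 and IL-15, had 154 ± 19.2 CPM in P6D4, against 0.269 ± 0.0661 CPM in 70Z/3 (9.14 ± 0.15, adjusted p = 1.22e-15). Il7r, the specific chain for IL-7, was lower in P6D4, at 79.1 ± 5.52 CPM, against 167 ± 17.3 CPM in 70Z/3 (-1.08 ± 0.07, adjusted p = 2.77e-09). The chains that join Jak1 and Jak3 through the gamma chain therefore differed in both directions. The gamma chain gene Il2rg itself, named here as the partner of Jak3 with its value known, was higher in P6D4 as Jak3 was, at 59.2 ± 1.79 CPM, against 39.0 ± 1.35 CPM in 70Z/3 (0.60 ± 0.04, adjusted p = 1.18e-08).

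The IL-12 receptor went against Stat4. Il12rb1, which binds Tyk2, had 12.2 ± 1.43 CPM in P6D4, against 0.27 ± 0.0595 CPM in 70Z/3 (5.47 ± 0.17, adjusted p = 1.03e-12). Il12rb2, which binds Jak2 and recruits Stat4 and was named with its value known, had 79.5 ± 1.5 CPM in P6D4, against 3.65 ± 0.185 CPM in 70Z/3 (4.44 ± 0.05, adjusted p = 7.25e-17). P6D4 thus carried more transcript of both receptor chains and 122-fold less Stat4 transcript.

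The IL-4 receptor fell where Stat6 hardly differed. Il4ra, the chain that recruits Stat6, had 1.75 ± 0.353 CPM in P6D4, against 52.5 ± 1.84 CPM in 70Z/3 (-4.92 ± 0.09, adjusted p = 3.7e-15). Il13ra1, its partner in the IL-13 receptor and named with its value known, was without a count in P6D4, had 3.67 ± 0.481 CPM in 70Z/3 and was at least 63.8-fold lower. Il6st, the shared chain of the IL-6 family that recruits Stat3 and was also named with its value known, was higher in P6D4, at 52.3 ± 1.44 CPM, against 38.8 ± 1.1 CPM in 70Z/3 (0.43 ± 0.04, adjusted p = 3.35e-07).

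**Figure D4:**
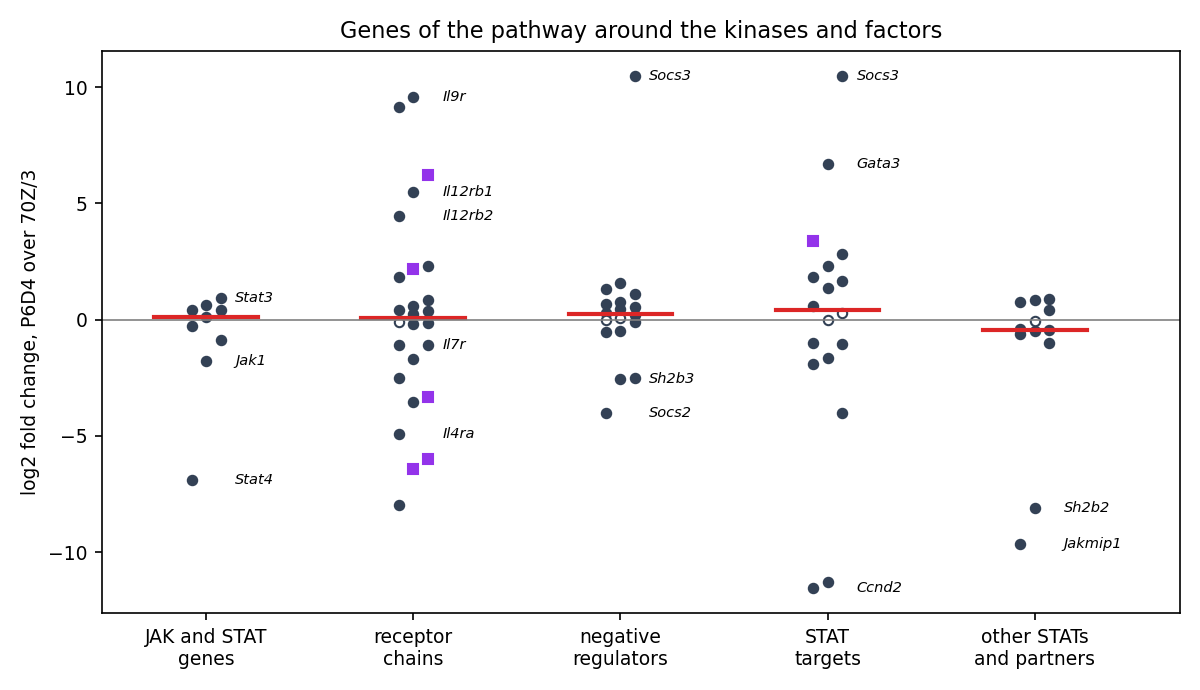
log2 fold change, P6D4 over 70Z/3, of the tested genes in the 9 members and in 4 lists around them (filled, called; open, not called; purple squares, bounds of genes with no count in one line), with each group's median in red. Receptor chains and STAT targets spread over a wider range than the members, with Stat4 the exception among them.

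Of 20 negative regulators 18 could be tested, and 10 were higher, 6 lower and 2 not called in P6D4, 88.9% called beside 86.5% of all tested genes. The median log2 fold change was 0.23. Past a 2-fold difference 4 were higher and 3 lower, 38.9% of those tested, beside 35.2% of all tested genes. Socs3, a feedback inhibitor induced by Stat3, had 13.6 ± 0.31 CPM in P6D4, against 1 count in all of 70Z/3, a ratio of 1910 with an exact 95% counting interval of 343 to 75600 (adjusted p = 3.33e-14). Socs2, a feedback inhibitor induced by the Stat5 pair, had 1.21 ± 0.0878 CPM in P6D4, against 19.9 ± 1.95 CPM in 70Z/3 (-4.04, adjusted p = 2.5e-13). The 2 SOCS genes thus differed in opposite directions, Socs3 in the direction of Stat3 and Socs2 against that of Stat5a and Stat5b. Sh2b3, an adaptor that restrains Jak2, had 29.5 ± 0.41 CPM in P6D4, against 171 ± 10.0 CPM in 70Z/3 (-2.54, adjusted p = 4.17e-15). Ptpn6, a phosphatase that acts on Janus kinases, had 75.1 ± 0.893 CPM in P6D4, against 424 ± 12.5 CPM in 70Z/3 (-2.50, adjusted p = 3.01e-16). Not called were Pias1 (76.6 ± 5.88 CPM in P6D4, against 72.2 ± 2.58 CPM in 70Z/3) and Pias2 (85.3 ± 0.368 CPM in P6D4, against 86.7 ± 1.91 CPM in 70Z/3), which bind STAT proteins. Cish and Socs1, further feedback inhibitors, had too few counts, with no count in P6D4.

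Of 22 genes listed as STAT targets in lymphocytes 18 could be tested, and 9 were higher, 7 lower and 2 not called, 88.9% called beside 86.5% of all tested genes. The median was 0.42. Past a 2-fold difference 8 were higher and 5 lower, 72.2% of those tested, beside the 35.2% of all tested genes. The difference between these shares was not tested. Ccnd2, a cyclin, had 0.0252 ± 0.00945 CPM in P6D4, against 82.6 ± 1.8 CPM in 70Z/3 (-11.53, adjusted p = 7.67e-18). The survival gene Bcl2 had 0.0327 ± 0.0294 CPM in P6D4, against 85.6 ± 0.971 CPM in 70Z/3 (-11.28, adjusted p = 4.01e-17). In all of P6D4 Ccnd2 had 4 counts and Bcl2 5, so the sizes of these fold changes are uncertain. Both are known targets of the Stat5 pair, which was higher in P6D4. Some other known Stat5 targets of the list, named with their values known, were higher in P6D4 as the pair was. They were Il2ra by 2.31, Myc by 1.84, Pim1 by 1.37 and Pim2 by 0.56 on the log2 scale (edgeR adjusted p of 8.3e-07 or less). Bcl2l1 and Ccnd3, also listed and named with their values known, were lower in P6D4, at -1.92 and -1.04 (edgeR adjusted p = 1.34e-13 and 5.37e-11). The listed targets of the pair thus lay in both directions. Cish, also on this list, had 0 counts in P6D4 and 4 in 70Z/3, too few to test. These are transcript levels, and the activity of the STAT proteins was not measured. Gata3, the T cell factor that Stat6 can induce, had 145 ± 13.9 CPM in P6D4, against 1.4 ± 0.188 CPM in 70Z/3 (6.69, adjusted p = 4.53e-16). Mcl1 (186 ± 2.59 CPM in P6D4, against 186 ± 3.78 CPM in 70Z/3) and Osm (6.06 ± 1.23 CPM in P6D4, against 4.99 ± 0.315 CPM in 70Z/3) were not called.

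Of 12 other STATs, adaptors and cofactors, all tested, 4 were higher, 7 lower and 1 not called, 91.7% called beside 86.5% of all tested genes. The median was -0.44. Past a 2-fold difference 0 were higher and 2 lower, 16.7% of those tested, beside 35.2% of all tested genes. Jakmip1, which encodes a Janus kinase and microtubule interacting protein, had 0.0832 ± 0.0236 CPM in P6D4, against 69.2 ± 1.82 CPM in 70Z/3 (-9.66, adjusted p = 1.81e-17). Sh2b2 and Sh2b1, adaptors that bind Jak2, were both lower in P6D4. Sh2b2 had 0.0435 ± 0.0262 CPM in P6D4, against 13.0 ± 0.914 CPM in 70Z/3 (-8.11, adjusted p = 7.12e-14). Sh2b1 had 97.5 ± 2.44 CPM in P6D4, against 195 ± 3.02 CPM in 70Z/3 (adjusted p = 3.4e-12). In all of P6D4 Jakmip1 had 13 counts and Sh2b2 7, so the sizes of their fold changes are uncertain. Irf9, the DNA-binding partner of STAT factors in interferon signalling, was higher in P6D4, at 28.4 ± 1.21 CPM, against 15.4 ± 0.636 CPM in 70Z/3 (0.88, adjusted p = 3.07e-09). Stam2 was not called (32.3 ± 1.0 CPM in P6D4, against 34.1 ± 0.489 CPM in 70Z/3).

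Miz1, a zinc finger factor encoded by Zbtb17, was mapped in the same lines. Zbtb17 itself had 45.4 ± 0.887 CPM in P6D4, against 41.1 ± 0.506 CPM in 70Z/3 (0.14 ± 0.04, adjusted p = 0.00426). The authors' lists held 21629 peaks from 2.07 M tags in P6D4 and 10462 peaks from 4.48 M tags in 70Z/3. Their folds and scores are used within a list only, and with 1 library per line the peaks have no replicate check.

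In P6D4 no member had a summit 1 kb or less from either of its ends, beside 1.08% of 21883 protein-coding genes. In 70Z/3 Stat6 had one, beside 2.98% of genes. Its summit, chr10:127643030, lay 44 bases downstream of the start, with a fold of 6.57, a -log10 q of 6.62 and a pileup of 10 tags, and 30.8% of the peaks of that list had a lower fold. The peak began at base 127642974, within the last bases of the Stat6 sequence printed above. The P6D4 list had no peak within 50 kb of Stat6.

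With summits inside the gene included, P6D4 had Jak3, beside 9.48% of genes, at a fold of 6.82 and 6267 bases from the start, and 70Z/3 had Stat4 and Stat6, beside 11% of genes. The Stat4 summit, chr1:52046656, lay 38416 bases downstream of the second RefSeq start and 59550 bases from the nearest gene end. Its fold was 9.89 with a -log10 q of 13.5, and 81.4% of the 70Z/3 peaks had a lower fold. It was found in the line with 101 CPM of Stat4. It was not in the list of the line with 0.824 CPM, which had fewer tags but more peaks.

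Beyond the far end of Jak1, 5 P6D4 peaks lay 23039 to 27353 bases away, with folds of 6.54 to 9.3. The 70Z/3 list had 1 peak there, 23037 bases away with a fold of 7.28. Its summit was 2 bases from that of the nearest P6D4 peak. Jak2, Tyk2, Stat3, Stat5a and Stat5b had no peak within 50 kb in either list.

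**Figure D5:**
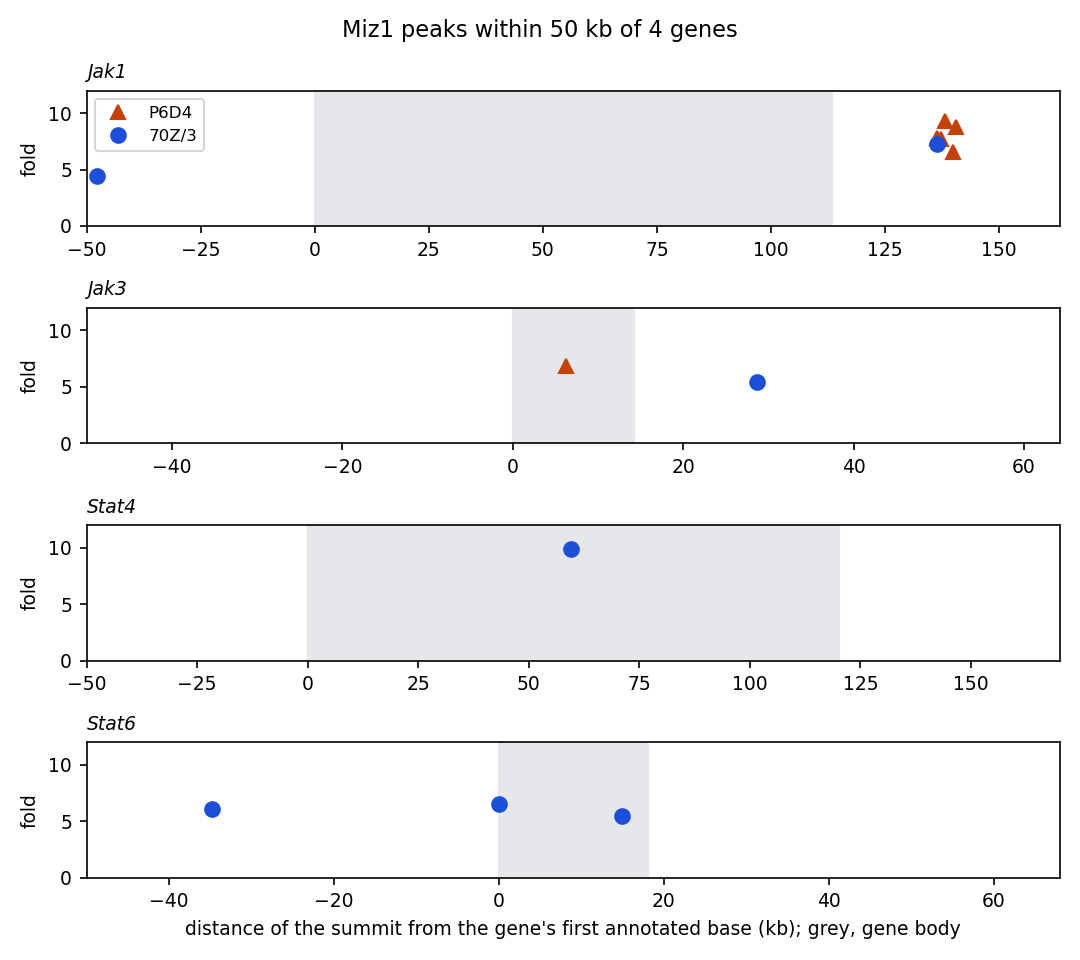
Miz1 peak summits within 50 kb of the 4 members that had any (horizontal, distance from the gene's first base in kb along its own strand, gene body in grey; vertical, the authors' fold over local background), with P6D4 as orange triangles and 70Z/3 as blue circles. The 1 summit at a start is that of Stat6 in 70Z/3, and the Stat4 summit lies mid-gene.

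The 12 member windows of 250 bases before to 50 after a RefSeq start were searched on both strands for 3 motifs. ATCGAT, chosen after the windows under strong peaks had been inspected, was in 0.925% of all 32851 windows, in 20.2% of the 89 windows that held a summit with a fold of at least 20, and in 0 of the 12. The STAT motif TTCNNNGAA was in 8.3% of all windows and the same half-sites with 1 more base between them, the spacing that Stat6 prefers, in 6.95%, and neither was in any of the 12. These letters are not in these windows, which says nothing of binding elsewhere.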

How the data were processed

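RNA-Seq counts are whole-number read counts per Ensembl gene, deposited by the authors as 1 file per library and not normalised. Aligners and counters named in the submitters' processing notes are Bowtie2 2.10, HTSeq, TopHat2 2.0.10, bedtools and SAMtools, with builds GRCm38 and mm10. The kit is stranded, per the labels' protocols, but the counting's strand setting is not stated in these sources. Summary lines naming no gene (14.48 to 15.99% no feature, 0.382 to 0.4236% ambiguous) were left out. So were alignments that were not unique, at 1.102 to 1.144 per gene count in P6D4, against 1.413 to 1.443 in 70Z/3. Miz1 peaks were called with MACS2 2.0.10.20120913 at q 0.01, per the file headers, on 1 library per line. Deposited per peak are a pileup (signal), a fold ratio over local background, a -log10 p-value and a -log10 q-value; decimal commas in the latter were read as points.

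Counts of 38293 genes (36345 with a symbol) were filtered with filterByExpr, TMM-scaled and tested with edgeR 4.0.16 (quasi-likelihood; glmTreat at log2 1), Benjamini-Hochberg adjusted over 13750 genes, with line as the only term. Only the edgeR steps were tested on simulated data, with a far smaller share of genes changed than differed here. The simulation thus does not check the scaling at the share found here, nor the other steps. The biological coefficient of variation was 4.084%. Alternatives were RLE, no scaling, no filter, a replicate block, each library left out, DESeq2 1.42.0 and limma 3.58.1 voom. Replicates of a line differed beyond sampling noise (chi-square over its degrees of freedom, 2.46 to 13.8). Shares were compared with exact permutation tests (scipy 1.17.1), with Clopper-Pearson intervals. A gene at 0 in a line was set against 3 counts per library. Peaks were placed by summit within 1 kb of a RefSeq gene end (GRCm38.p6). Histone mark and input samples are not analysed here.

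The members and lists were chosen with earlier results of these data known. All 9 members are named. From each list, the 4 largest called log2 fold changes (higher line at 5 CPM or more) and up to 3 uncalled genes are named, with the nearest gene on each side of a member, the 3 nearest patterns to the members with the highest and lowest fold change, Zbtb17 and Il7r; exceptions are marked, and some genes that the rule names are not reported here.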

Additional observations from a re-analysis of the deposited data

How the results depend on the processing

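Of 340 alternatives to 35 results, 330 kept the direction and, for a value with a test, its call, or for a count stayed within 1.5 times; 10 did not. Counts of calls still moved by a few genes: negative regulators lower in P6D4 numbered 5 to 7 (6 as reported), partners lower 7 to 8 (7) and STAT targets higher 9 to 10 (9). Among the lists, receptor chains lower in P6D4 moved most, from 12 as reported to 15 without a filter on low counts. That setting tested 30 chains. The log2 fold change of Stat6, 0.11, lost its call with RLE size factors (0.08) and DESeq2 (0.08), and leaving out 1 library gave 0.07 to 0.13; the cause was not tested. The members called higher in P6D4 then numbered 4 in place of 5. The difference in Stat5a share of the Stat5 pair, -0.351 points, changed sign without P6D4 replicate 2 (0.0243) and without 70Z/3 replicate 2 (0.792), within a range of -1.11 to 0.792. Members with a Miz1 peak numbered 1 (P6D4) and 2 (70Z/3) when summits inside genes counted, and 0 in 70Z/3 at a -log10 q of at least 10, which follow from how these settings were made. The replicate numbers did not pair the libraries (correlations of deviations -0.0554, -0.0462 and 0.00835), and with a replicate block 5 members were higher and 4 lower, as without it. The 2-fold test was not run under DESeq2 or voom. Shares per coding length were not run. There was 1 Miz1 library per line, with fewer tags but more peaks in P6D4. A peak in one list only may thus not be a difference between the lines.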

Other observations

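Other receptor chains around the members, named with their values known, also differed in both directions. Il2ra, the high-affinity chain for IL-2, had 54.1 ± 2.73 CPM in P6D4, against 10.9 ± 0.388 CPM in 70Z/3 (SD, n = 3 each; log2 fold change 2.31, edgeR adjusted p = 6.81e-14). Il15ra, that for IL-15, had 55.0 ± 0.744 CPM in P6D4, against 15.3 ± 0.786 CPM in 70Z/3 (1.84, edgeR adjusted p = 2.17e-13). Il21r, a gamma chain partner, was lower in P6D4, at 7.37 ± 0.569 CPM, against 86.9 ± 6.56 CPM in 70Z/3 (-3.56, edgeR adjusted p = 8.14e-15). Ifngr2, the chain that brings Jak2 to the interferon gamma receptor, was lower too, at 5.6 ± 0.51 CPM in P6D4, against 32.3 ± 0.818 CPM in 70Z/3 (-2.53, edgeR adjusted p = 2.48e-13). The interferon chains Ifnar1 and Ifnar2, which bind Tyk2 and Jak1, differed by -0.17 and 0.23 (adjusted p = 0.00155 and 0.00209).

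Within P6D4, replicate 1 held the lowest value for 8 of 9 members, all but Stat4, and replicate 3 the highest for 6, beside 34.2% of all tested genes. Replicate 1 was the lowest of the P6D4 libraries for 42.0% of all tested genes. In 70Z/3, replicate 2 held the lowest value for 6 members, beside 31.7% of tested genes, and replicate 1 the highest for 7, beside 39.9%. The cause was not tested.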
